A study of Mus musculus with 2 samples.

Results

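The oxidative phosphorylation genes examined here were 108 of the 32285 genes counted in the series, 13 of them encoded by the mitochondrial genome and 95 by the nuclear genome. A gene was taken by its symbol, where this began with mt-Nd, mt-Co, mt-Cytb, mt-Atp, Ndufa, Ndufb, Ndufs, Ndufv, Sdha to Sdhd, Uqcr, Cox4 to Cox8 or Atp5, and the pseudogene Ndufb1-ps was left out. No measured value entered this rule, though the genes were chosen with earlier results of these data known.

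Oxidative phosphorylation takes place in the inner mitochondrial membrane. Complexes I and II pass electrons from NADH and succinate to ubiquinone, complex III hands them to cytochrome c, complex IV passes them to oxygen, and complex V, the ATP synthase, uses the proton gradient that results. The core membrane subunits of complexes I, III, IV and V are encoded by mitochondrial DNA and transcribed inside the organelle, whereas complex II and all other subunits and assembly factors come from nuclear genes, so that each cell draws on both genomes.

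The data were single-cell 3′ RNA sequencing of 2 orthotopic pancreatic tumours, each raised in 1 mouse from KPC cells, a mouse pancreatic cancer cell line. The tumour labelled KPC-shV grew from cells carrying the control vector, and the tumour labelled KPC-shZEB1 from cells carrying a hairpin against Zeb1, an epithelial-mesenchymal transition factor. The study's text mentions gemcitabine, a nucleoside analogue, in wording that can be read as a treatment of both tumours or of the knockdown tumour alone, and the labels state no treatment. Each group was 1 animal and 1 library, so no difference between them was tested, the group and the animal cannot be told apart, and every interval given here is a 95% interval for counting error only.

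The matrices held 12594 and 13271 barcodes in KPC-shV and KPC-shZEB1, and 46 barcode sequences occurred in both. After filters, 11398 and 12104 cells with 101201508 and 118943000 UMIs (unique molecular identifiers, each a counted transcript molecule) remained, with medians of 3720 and 4252 UMIs per cell. Cells were clustered without the 108 genes, and clusters were named from marker genes, giving 9 classes of at least 50 cells in each library. Tumour-like cells (1495 in KPC-shV and 1434 in KPC-shZEB1) held Zeb1 at 167 and 189 CPM (the UMIs of a gene scaled to the same total in every class and library), a ratio of 1.13 (1.09 to 1.17), so this count of the targeted transcript did not bear out the label of the knockdown library. The study itself reported a measurement of Zeb1 knockdown efficiency in KPC cells and stained tumours for Zeb1 protein, neither of which these counts hold. The labels were kept. All directions below are those of the library labelled KPC-shZEB1 against the library labelled KPC-shV.

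In all, 5 of the mitochondrial genes carried the plainest difference between the libraries, and their sequences are shown first because base composition was compared with it below. For each gene the 30 bases of the transcript with the most A are printed in lower case, with runs of 5 or more A in capitals, from the GENCODE M21 transcripts on GRCm38 (the build named mm10 in the submitters' processing notes). The first 4 belonged to genes that made up a larger part of the mitochondrial UMIs in KPC-shZEB1, and the last 2 to genes that made up a smaller part.
mt-Nd2, chrM:4846-4875, plus strand: AAAAAtaataactcaccaaacAAAAActaa
mt-Atp8, chrM:7881-7910, plus strand: caaaatcactaacaaccataaaagtAAAAA
mt-Nd4, chrM:10416-10445, plus strand: ctAAAAAAAgataataacgtactacAAAAA
mt-Nd5, chrM:13262-13291, plus strand: aaccataaaactatcaataaataaagcaaa
mt-Co2, chrM:7143-7172, plus strand: taatattaacaacaaaactaacacatacaa
mt-Cytb, chrM:15254-15283, plus strand: aattatcgaagacaaaatactaaaattata
The fifth gene, mt-Nd4l, had at most 14 A in any 30 bases, fewer than the 20 of mt-Nd2. The windows printed are a choice and not all 13. The gene mt-Nd3, whose part of the mitochondrial UMIs fell most (median ratio 0.775), had a window with 17 A and a run of 5. The window of mt-Co2 held 18 A, against 19 in those of mt-Atp8, mt-Nd4 and mt-Nd5.

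The short gene mt-Atp8 is shown whole because its 3′ end is shared with the next gene. It spans chrM:7766-7969 on the plus strand, and the 43 bases in capitals (chrM:7927-7969) are also the start of mt-Atp6.
mt-Atp8: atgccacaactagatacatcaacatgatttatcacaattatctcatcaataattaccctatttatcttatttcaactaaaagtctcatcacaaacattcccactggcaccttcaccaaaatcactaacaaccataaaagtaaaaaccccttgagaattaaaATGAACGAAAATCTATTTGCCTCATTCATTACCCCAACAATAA
The pair mt-Nd4l and mt-Nd4 shared 7 bases, and mt-Nd5 and mt-Nd6, which lie on opposite strands, shared 14. The split of reads within the 2 pairs on the same strand is uncertain, and whether strand was used in counting mt-Nd5 and mt-Nd6 is not given in the sources used here.

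Taken over all kept cells, the 13 mitochondrial genes held 1.98% of the UMIs in KPC-shV and 2.23% in KPC-shZEB1. The 95 nuclear genes held 1.08% and 1.13%. These totals mixed cell classes in different proportions, so levels were compared class by class.

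Tumour-like cells gave the highest mitochondrial share of the 9 classes in both libraries, with 2.66% of UMIs in KPC-shV and 2.92% in KPC-shZEB1. Monocyte-macrophage-like cells followed with 2.24% and 2.29%, and B-like cells with 2.12% and 2.26%. Granulocyte-like cells were lowest, with 0.784% and 0.985%. The 5 remaining classes lay between 1.78% and 1.94% in KPC-shV and between 1.88% and 1.98% in KPC-shZEB1. Within that band the counting intervals of NK-like and fibroblast-like cells overlapped in both libraries, as did those of dendritic-like and T-like cells in KPC-shV, of T-like and NK-like cells in KPC-shZEB1 and of endothelial-like and dendritic-like cells in KPC-shZEB1.

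The nuclear share followed another order. Dendritic-like (1.36% and 1.27%), monocyte-macrophage-like (1.31% and 1.21%) and tumour-like cells (1.25% and 1.29%) were the 3 highest classes in each library. T-like cells (1.24% and 1.13%) and NK-like cells (1.23% and 1.06%) came next, and in KPC-shV their intervals overlapped each other and T-like cells overlapped tumour-like cells. Fibroblast-like cells (1.02% and 0.966%), endothelial-like cells (0.924% and 0.960%) and B-like cells (0.834% and 0.815%) lay below them, and granulocyte-like cells were again lowest (0.595% and 0.708%). B-like cells thus combined the third highest mitochondrial share with the second lowest nuclear share in both libraries, at 2.54 and 2.77 mitochondrial UMIs per nuclear UMI. In dendritic-like cells that ratio was 1.34 and 1.47.

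**Figure D1:**
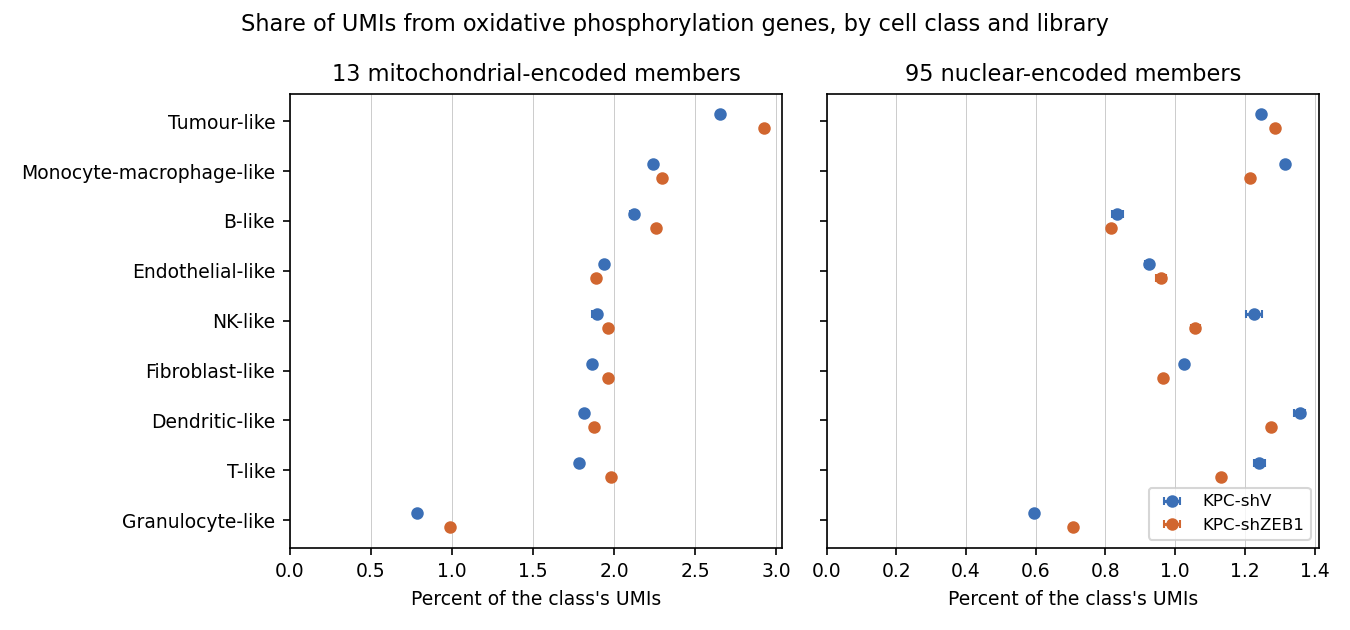
Percent of each class's UMIs (horizontal axis) from the 13 mitochondrial-encoded genes (left) and the 95 nuclear-encoded genes (right), with 1 point per class and library and bars for 95% counting intervals, most of which are narrower than the points. Tumour-like cells lie furthest right on the left panel (2.66% and 2.92%) and granulocyte-like cells furthest left on both panels.

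The nuclear genes were taken up by complexes in similar proportions in every class. Over the 18 combinations of class and library, complex V took 28.5% to 32% of the nuclear UMIs, complex IV 24.1% to 32.1% and complex I 24.9% to 29.3%. Complex III took 8% to 10.4% and complex II 1.71% to 2.32%. The class with the highest level of a nuclear gene was most often tumour-like (25 genes in KPC-shV and 38 in KPC-shZEB1, leaving out ties) or dendritic-like (23 and 26), and the class with the lowest level was granulocyte-like for 67 and 55 genes.

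Between the libraries, the mitochondrial share of tumour-like cells was 1.10 times as high in KPC-shZEB1 (1.10 to 1.10) and the nuclear share 1.03 times (1.03 to 1.04). As a mean over cells in place of a sum of UMIs, the nuclear ratio turned to 0.993. The tumour-like cells fell into 4 clusters. In the cluster led by Cntn5 and Prg4 the mitochondrial share was 2.51% and 2.77%, in the cluster led by Epcam and Lama3 it was 3.01% and 3.41%, and in the cluster led by Cks1b and Ranbp1 it was 2.76% and 2.73%. The mitochondrial share was thus higher in KPC-shZEB1 in the first 2 clusters (ratios 1.10 and 1.13) and not in the third (0.990). The nuclear ratios in the same clusters were 1.00, 1.02 and 0.954, so none of the 3 reached the pooled nuclear ratio of 1.03. The fourth cluster, led by Zfp804b and Ralyl, held 9 cells of KPC-shV and 226 of KPC-shZEB1 and may be that library rather than a cell type.

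In granulocyte-like cells both shares were higher in KPC-shZEB1, the mitochondrial share 1.26 times (1.25 to 1.27) and the nuclear share 1.19 times (1.18 to 1.2). Among all genes with a mean of at least 10 CPM in this class, 41.1% were at least 1.2-fold higher and 9.88% lower. In monocyte-macrophage-like cells the mitochondrial share was close to equal (1.02, 1.02 to 1.03, and 0.981 as a mean over cells) and the nuclear share was lower (0.923, 0.919 to 0.928). The nuclear share was also lower in NK-like (0.862), T-like (0.910), dendritic-like (0.939), fibroblast-like (0.943) and B-like cells (0.977). Endothelial-like cells were the exception among the other classes, with a lower mitochondrial (0.974) and a higher nuclear share (1.04). The number of mitochondrial UMIs per nuclear UMI was higher in KPC-shZEB1 in 8 of the 9 classes, by 1.06-fold in granulocyte-like to 1.22-fold in T-like cells, and lower in endothelial-like cells (0.938). The share of the cytosolic ribosomal protein genes, whose transcripts are also short, had a ratio of 1.11 in granulocyte-like cells and of 0.856 to 0.961 in the other 8 classes, and its part in the result was not tested.

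The 13 mitochondrial genes did not move together. For each gene the share it took of the mitochondrial UMIs was compared, which removes differences in the total. This share was higher in KPC-shZEB1 in all 9 classes for 6 genes, by little for mt-Atp6 and by more for the other 5, of which mt-Nd2 and mt-Atp8 stood far apart from the rest.

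mt-Nd2, a proton-pumping membrane subunit of complex I, took 1.27% of the mitochondrial UMIs of tumour-like cells in KPC-shV and 3.08% in KPC-shZEB1. Over the 9 classes its share ran from 1.19% to 1.45% in KPC-shV and from 3.08% to 3.87% in KPC-shZEB1, so the classes of the 2 libraries did not overlap. The ratio ran from 2.38 to 2.74 with a median of 2.57, a narrow range for classes that differ so much in their total. The 9 classes of a library came from 1 tumour and 1 library and are not independent of each other.

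mt-Atp8, a small subunit of the membrane part of ATP synthase, took 0.0294% to 0.0787% of the mitochondrial UMIs in the classes of KPC-shV and 0.204% to 0.301% in those of KPC-shZEB1. In tumour-like cells it was counted 493 times in KPC-shV and 2559 times in KPC-shZEB1. The ratio of its share was 4.79 there (4.35 to 5.29) and 3.80 to 7.83 over the 9 classes, the highest value coming from NK-like cells, where the interval was 3.26 to 24.6. mt-Atp6, the proton channel subunit whose gene overlaps mt-Atp8, differed far less, with ratios of 1.01 to 1.07.

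mt-Nd4 and mt-Nd5, both proton-pumping subunits of complex I, were higher by smaller amounts. mt-Nd4 took 4.23% and 5.75% of the mitochondrial UMIs in tumour-like cells, and its ratio over the classes was 1.30 to 1.42. mt-Nd5 took 1.03% and 1.25%, with ratios of 1.22 to 1.47. mt-Nd4l, a small complex I subunit read from the same messenger as mt-Nd4, took 0.220% and 0.290%, with ratios of 1.2 to 1.84.

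The remaining genes of complex I differed among themselves. mt-Nd3 took 1.16% and 0.847% in tumour-like cells, and its ratio was below 1 in all 9 classes (0.715 to 0.882). mt-Nd1 had ratios of 0.923 to 1.09. mt-Nd6, the gene on the light strand, was counted rarely (1601 and 1685 UMIs in tumour-like cells) and its ratios ran from 0.741 to 1.38 without a common direction.

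In complexes III and IV the shares of 3 of the 4 genes were lower in KPC-shZEB1 in all 9 classes. mt-Co1, the catalytic subunit of complex IV, took 18.1% and 16.1% of the mitochondrial UMIs in tumour-like cells, with ratios of 0.746 to 0.909. mt-Co2, which receives electrons from cytochrome c, took 14.7% and 12.7% (0.862 to 0.908). mt-Cytb, the mitochondrial subunit of complex III, took 8.39% and 7.17% (0.855 to 0.989). mt-Co3, the third subunit of complex IV and the most counted of the 13 genes, took 24.1% and 25.2%, with ratios of 0.993 to 1.08. The lower shares follow in part from shares adding up to a whole.

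**Figure D2:**
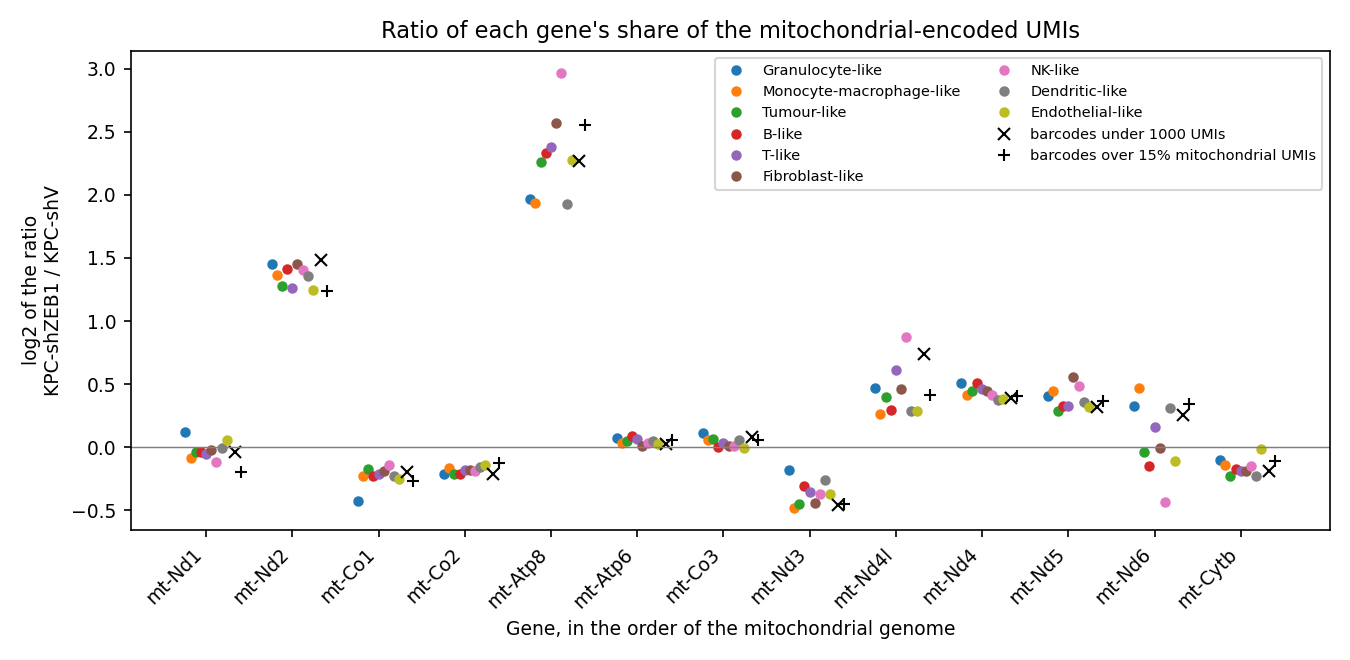
Ratio of each mitochondrial gene's share of the mitochondrial-encoded UMIs (KPC-shZEB1 over KPC-shV, log2 axis) for the 13 genes in genome order, with 1 coloured point for each of 9 classes and black marks for 2 sets of barcodes that were not used as cells. mt-Nd2 and mt-Atp8 stand above all other genes in every set, and the points of a gene lie close together except for the rarely counted mt-Atp8, mt-Nd4l and mt-Nd6.

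The same pattern was present outside the cells that were kept. In the 461 and 457 barcodes under 1000 UMIs, mt-Nd2 took 1.12% of the mitochondrial UMIs in KPC-shV and 3.14% in KPC-shZEB1, a ratio of 2.79 (2.42 to 3.24). There mt-Atp8 had a ratio of 4.83 (2.82 to 8.73) and mt-Nd4 of 1.31 (1.21 to 1.43). In the 81 and 121 barcodes removed only for holding over 15% mitochondrial UMIs, the ratio of mt-Nd2 was 2.36 and that of mt-Atp8 5.86. The difference in these genes was thus present in all 9 classes and in both other sets of barcodes. Whether it arose in the animal, the tissue handling or the library cannot be told apart with 1 library per group.

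As plain CPM in tumour-like cells, mt-Nd2 was 337 in KPC-shV and 899.6 in KPC-shZEB1 (2.67-fold), mt-Nd4 1124 and 1683 (1.5-fold) and mt-Nd5 273 and 366 (1.34-fold). mt-Co1 was 4815 and 4714 (0.979), mt-Co2 3902 and 3717 (0.953) and mt-Cytb 2229 and 2097 (0.941). Of the 13 genes, 5 were at least 1.2-fold higher in tumour-like cells and 1, mt-Nd3 (308 and 248 CPM), at least 1.2-fold lower, where 14.9% of all 9315 genes tested were higher and 9.82% lower. At least 1.2-fold higher in all 9 classes were 4 of the 13 (mt-Nd2, mt-Atp8, mt-Nd4 and mt-Nd5), against 0.839% of the 5604 genes tested in every class.

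The summed mitochondrial share rested partly on these genes. Without mt-Nd2 the ratio in tumour-like cells was 1.08 in place of 1.10, and without all 5 genes it was 1.06. In granulocyte-like cells it was 1.23 without mt-Nd2 and 1.2 without the 5 genes. In monocyte-macrophage-like cells it was 1.00 and 0.978.

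Base composition was set beside these ratios, since the 3′ assay primes on stretches of A. mt-Atp8 had the highest share of A of the 13 genes (40.7%), followed by mt-Nd2 (36.9%), mt-Nd4 (34.8%) and mt-Nd5 (34.3%). mt-Nd2 also held the longest run, 8 A in a row, and 3 runs of 6 or more, against 2 such runs in mt-Nd4 and in mt-Nd5 and 1 in mt-Nd1 and in mt-Co1. Across the 13 genes, which share the 2 libraries and are not independent replicates, the share of A and the median ratio had a Spearman correlation of 0.56 and a Pearson correlation of 0.634. For the longest run of A these were 0.242 and 0.248, and for the number of runs of 5 or more 0.270 and 0.295. Several genes departed from the order by A. mt-Nd4l had 30.0% A, no run over 4 and a median ratio of 1.31, whereas mt-Nd3, with 34.2% A and 2 runs of 5 or more, had the lowest median ratio (0.775), and mt-Co2, with 33.8% A, had 0.881. The part of base composition in the result was not tested.

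The nuclear genes showed no difference of the size seen in mt-Nd2 and mt-Atp8. Those 2 had median log2 ratios of CPM of 1.41 and 2.29 over the 9 classes (1 CPM added to each level). Uqcr11, with a median of -0.51 and at least 1.2-fold lower in 8 classes, was about as far from 0 as mt-Nd4 (0.52). The highest nuclear median among genes tested in all classes was that of Ndufa12 (0.34). In all, 78 nuclear genes passed a mean of 10 CPM in every class. Of these, 0 were at least 1.2-fold higher in all classes and 0 at least 1.2-fold lower in all, against 0.839% and 0.393% of all genes. Both counts lay close to these small shares. No test across replicates was possible here. Without a minimum fold, 4 nuclear genes were higher and 4 lower in every class, which is 5.13% in each direction, beside 6.94% and 3.21% of all genes.

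In tumour-like cells 87 nuclear genes passed the mean of 10 CPM, and 17 were at least 1.2-fold higher and 3 at least 1.2-fold lower (19.5% and 3.45%), beside the 14.9% and 9.82% of all genes given above. With 1 CPM added to each level, their log2 ratios had a median of 0.05, and those of all genes one of 0.01. The counts of calls moved with the cells kept, to 10 higher and 6 lower without the upper limit of 60000 UMIs per cell, and to 5 lower without the cluster that was mostly of 1 library. By complex, 11 of 34 complex I subunits were higher and 0 lower (median 0.13). Of 11 complex IV subunits, 0 were higher and 1 lower (median -0.04), and of 17 complex V genes 2 were higher and 1 lower (median 0.05). Complex III had 1 of 8 in each direction, complex II 1 of 4 higher, complex I assembly factors 1 of 8 higher and complex II assembly factors 0 of 4 in either direction.

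The 5 nuclear genes highest in KPC-shZEB1 in tumour-like cells were 3 complex I subunits, 1 assembly factor and 1 ATP synthase subunit. Ndufs8, which carries iron-sulfur clusters of the hydrophilic arm of complex I, was 46.3 CPM in KPC-shV and 70.5 in KPC-shZEB1, a ratio of 1.52 (1.43 to 1.62). Ndufa9, an accessory subunit near the ubiquinone site, was 40.2 and 56.3 (1.40, 1.31 to 1.5). Ndufb8, an accessory subunit of the membrane arm, was 100.3 and 135 (1.35, 1.29 to 1.41). These 3 had intervals well above 1, and so did Atp5d, the delta subunit of the ATP synthase stalk, at 204 and 276 CPM (1.35, 1.31 to 1.40). Ndufaf3, a complex I assembly factor, had few counts (327 and 433 UMIs) and a ratio of 1.35 (1.16 to 1.56).

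The 5 lowest were small subunits of complexes I, III, IV and V. Uqcr11, a small subunit of complex III, was 180.5 CPM in KPC-shV and 137 in KPC-shZEB1, a ratio of 0.761 (0.733 to 0.791). Cox6c, a complex IV subunit, was 280.5 and 216 (0.770, 0.747 to 0.794). Atp5mpl, a small membrane protein of ATP synthase, was 139.9 and 116 (0.830, 0.796 to 0.866). Ndufb2 of complex I (0.833) and Cox5b of complex IV (0.853) were not called, Ndufb2 lying just short of 1.2-fold once 1 CPM was added to each level. These 5 genes sat at the other end of the order from the iron-sulfur and stalk subunits.

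The most and the least counted subunit of each complex differed little between the libraries, on the scale of UMIs and without correction for transcript length. In complex I these were Ndufa13 (254 and 276 CPM, ratio 1.09) and Ndufa1 (35.5 and 35.3, 0.994), in complex II the membrane anchors Sdhc (82.3 and 74.6, 0.905) and Sdhd (34.7 and 37.1, 1.07), and in complex III Uqcrh (281 and 287, 1.02) and the core protein Uqcrc2 (62.0 and 65.8, 1.06). In complex IV they were Cox4i1, the usual form of subunit IV (751 and 773, 1.03), and Cox6a1 (121 and 121, 1.01), and in complex V the catalytic beta subunit Atp5b (370 and 425, 1.15) and Atp5k (72.9 and 67.1, 0.920). None of these 10 reached 1.2-fold. Cox7a2l, which takes part in joining complexes III and IV into supercomplexes, was 217 CPM in KPC-shV and 272 in KPC-shZEB1 (1.25, 1.21 to 1.29).

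Ndufs8 and Uqcr11 are shown by the 200 bases before their RefSeq start sites on GRCm38.p6, as the genes at the 2 ends of the order in tumour-like cells. Capitals mark an ETS-type motif, CCGGAAGT.
Ndufs8, chr19:3912775-3912974, minus strand: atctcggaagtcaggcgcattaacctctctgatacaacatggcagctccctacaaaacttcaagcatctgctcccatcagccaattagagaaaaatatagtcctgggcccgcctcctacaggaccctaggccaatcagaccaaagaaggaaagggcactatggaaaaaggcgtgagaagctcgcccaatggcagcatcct
Uqcr11, chr10:80406822-80407021, minus strand: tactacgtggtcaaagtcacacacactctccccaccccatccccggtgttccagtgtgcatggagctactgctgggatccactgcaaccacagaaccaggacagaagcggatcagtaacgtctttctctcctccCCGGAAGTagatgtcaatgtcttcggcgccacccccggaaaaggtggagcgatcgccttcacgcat
Nuclear respiratory genes are known for binding sites of the factors NRF1, GABP (an ETS factor) and YY1. Windows of 250 bases before to 50 after the RefSeq start were searched on both strands for GCGCATGC (NRF1), CCGGAAGT (ETS) and AAGATGGC (YY1), and 77 of the 95 nuclear genes were in the table. The NRF1 letters were found for 12 of the 77 genes (15.6%, beside 3.05% of 27025 genes), the YY1 letters for 9 (11.7%, beside 3.19%) and the ETS letters for 5 (6.49%, beside 4.31%). Any of the 3 was found for 25 (32.5%, beside 9.91%). The NRF1 letters on the 2 strands overlap, so a match on both is 1 site. The motif is read from letters alone, and Ndufs8 held none of the 3 in its window. Uqcr11 held the ETS letters and also the NRF1 letters, the latter not whole within the 200 bases printed.

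The genes at the ends of the tumour-like order were followed across the 9 classes, which include the tumour-like cells they were picked from. Uqcr11 was lower in KPC-shZEB1 in all 9 classes, with log2 ratios from -0.59 in NK-like to -0.03 in granulocyte-like cells and a median of -0.51. Atp5mpl was lower in all 9 (median -0.46), as was Cox5b (median -0.30). Cox6c (median -0.35) was lower in 8 classes and higher in granulocyte-like cells (0.15). In the other direction Ndufs8 (median 0.29) and Atp5d (median 0.25) were higher in all 9 classes, and Ndufa9 (median 0.32) in 8, with -0.04 in T-like cells. Chosen after their values were seen, Cox7c (median -0.25) was lower and Ndufa12 (median 0.34) and Ndufab1 (median 0.17) were higher in every class. Of the 78 nuclear genes, 4 were higher and 4 lower in every class, which is 5.13% each way. Among all genes these shares were 6.94% and 3.21%, so such genes were not a particular trait of the set.

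**Figure D3:**
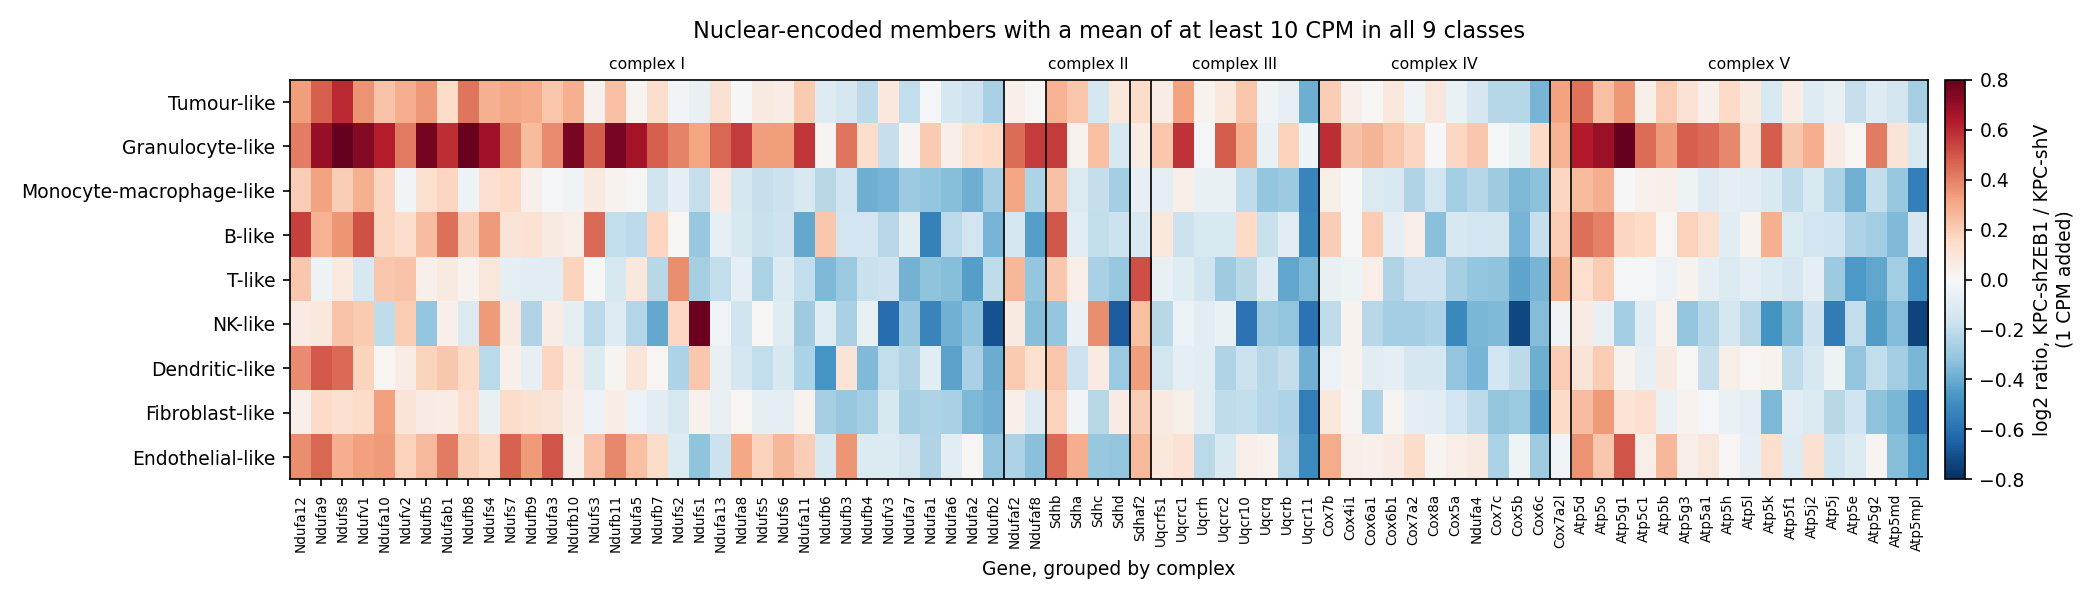
Log2 ratio (KPC-shZEB1 over KPC-shV, 1 CPM added) of the 78 nuclear-encoded genes with a mean of at least 10 CPM in every class, with genes in columns grouped by complex and classes in rows; colour is blue below 0 and red above 0 and saturates at 0.8. The granulocyte-like row is mostly red, and Uqcr11, Cox6c, Cox5b and Atp5mpl are blue in nearly every row.

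The 3 nuclear genes called lower in tumour-like cells had short coding sequences, 168 bases in Uqcr11, 174 in Atp5mpl and 228 in Cox6c, and those of Ndufs8 and Ndufa9 were 636 and 1131 bases. Ndufb2 (315) and Cox5b (387) were longer than the first 3, and Ndufv3, the lowest gene in granulocyte-like cells, had 1404 coding bases. In tumour-like cells the 20 nuclear genes with under 300 coding bases had a median log2 ratio of -0.07 (0 higher and 3 lower), the 43 genes of 300 to 600 bases 0.06 (10 higher and 0 lower) and the 24 longer genes 0.10 (7 higher and 0 lower). In monocyte-macrophage-like cells the same 3 groups had medians of -0.24, -0.08 and 0.04, and in granulocyte-like cells 0.16, 0.38 and 0.45. In monocyte-macrophage-like cells 9 of the lower genes had under 300 coding bases, 9 had 300 to 600 and 1 was longer. Genes outside the set with under 300 coding bases had medians of -0.06 in tumour-like, -0.17 in monocyte-macrophage-like and 0.10 in granulocyte-like cells.

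Across nuclear genes, which are not independent replicates, the Spearman correlation of the log2 ratio with coding length ran from 0.297 in dendritic-like to 0.592 in fibroblast-like cells. Over all genes of a class it ran from -0.04 to 0.236. The part of transcript length in the differences between members was not tested.

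In monocyte-macrophage-like cells 4 of 82 nuclear genes were at least 1.2-fold higher and 19 at least 1.2-fold lower (4.88% and 23.2%), beside 11% and 7.2% of all genes. The median log2 ratio was -0.11, and 0.01 over all genes. The all-gene share mixes coding lengths. Of the nuclear genes with under 300, 300 to 600 and more coding bases, 45%, 21.4% and 5% were lower. Of genes outside the set these shares were 33.3%, 13.7% and 5.19%. Complex I had 7 of 34 lower, complex III 3 of 8, complex IV 4 of 11 and complex V 3 of 17. The lowest were Atp5mpl (181 and 124 CPM, ratio 0.683, 0.655 to 0.713), Uqcr11 (164 and 113, 0.691) and Ndufb4, an accessory complex I subunit (69.2 and 52.5, 0.760). The highest were Ndufa9 (41.0 and 51.6, 1.26), Ndufaf2, a complex I assembly factor (17.0 and 21.4, 1.26), and Atp5o, the stator subunit that joins the 2 parts of ATP synthase (181 and 221, 1.22).

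In granulocyte-like cells 46 of 80 nuclear genes were at least 1.2-fold higher and 0 at least 1.2-fold lower, beside 41.1% and 9.88% of all genes. The median log2 ratio was 0.33, and 0.19 over all genes, so the genes of the class as a whole also shifted upward. Complex I had 25 of 34 higher, complex V 11 of 17, complex III 3 of 8 and complex IV 2 of 11. The highest were Ndufb8 (39.7 and 77.0 CPM, ratio 1.94, 1.77 to 2.12), Atp5g1, a gene for the rotor ring of ATP synthase (32.1 and 60.7, 1.89), and Ndufs8 (17.7 and 31.4, 1.78). The lowest were Ndufv3 (55.5 and 48.8, 0.879), Sdhd, a membrane anchor of complex II (16.8 and 15.3, 0.910, 0.765 to 1.08), and Atp5mpl (90.1 and 82.5, 0.916).

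The granulocyte-like difference in the nuclear share went with the mix of clusters. Different clusters held most of the class in the 2 libraries: the cluster led by Dach1 and Cxcl3 held 31.1% of the class in KPC-shV and 12.3% in KPC-shZEB1, the cluster led by G0s2 and Hdc 19.3% and 30.8%, and the cluster led by Med12l, with Siglecf among its leading genes, 10.2% and 34.0%. This last cluster, of 698 and 1470 cells, had the highest nuclear share of the granulocyte-like clusters, 1.03% in KPC-shV and 0.984% in KPC-shZEB1. The rest of the class had 0.543% and 0.553%. The nuclear share was thus 1.90 and 1.78 times as high in the Siglecf cluster, while its mitochondrial share was only 1.35 and 1.19 times as high (1.02% and 1.10%, against 0.756% and 0.923%).

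Nearly all nuclear genes took part in that contrast. In KPC-shV 77 of 80 were at least 1.2-fold higher in the Siglecf cluster than in the rest of the class, and in KPC-shZEB1 79 of 81, but many other genes were higher too (58.6% and 56.6% of all genes). The median log2 ratio of the nuclear genes was 0.99 and 0.89, and 0.40 and 0.36 over all genes. Complex I subunits had medians of 1.11 and 0.99, complex III 1.06 and 0.81, complex IV 0.96 and 0.87, complex V 0.96 and 0.87 and complex II 0.59 and 0.66. Named after their values were seen, Ndufaf8, a complex I assembly factor, was 13.1 CPM in the rest and 42.9 in the cluster in KPC-shV, and 14.4 and 42.7 in KPC-shZEB1. Ndufa11, a membrane subunit of complex I, was 23.3 and 75.8, and 28.0 and 71.1. Cox7b, a complex IV subunit, was 70.1 and 203, and 84.3 and 205. Ndufaf7, a methyltransferase needed for complex I assembly, was the gene that went the other way, with 17.2 and 10.5 CPM in KPC-shV and 20.8 and 12.2 in KPC-shZEB1.

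Inside single granulocyte-like clusters the nuclear share of the 2 libraries was close, with ratios of 0.923 to 1.09 in the clusters of at least 50 cells in each library. With the cluster mix of KPC-shV in both libraries the nuclear ratio of the class was 1.00, and with that of KPC-shZEB1 it was 0.966, in place of 1.19. Without the Siglecf cluster it was 1.02, with 18 genes higher and 5 lower. The mitochondrial ratio was less affected. It was 1.2 and 1.14 with the 2 fixed mixes and 1.22 without the Siglecf cluster, and 1.08 to 1.28 inside the clusters. These alternatives were chosen after seeing the data.

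RNA of other cells also differed between the 2 sets of granulocyte-like cells. Of the tumour markers all 8 had UMIs in granulocyte-like cells of both libraries, with summed levels of 392 CPM in KPC-shV and 556 in KPC-shZEB1, against 4104 and 5092 in tumour-like cells. All 10 monocyte-macrophage markers were counted, at 563 and 1195 CPM, against 7604 and 9906 in their own class, and all 8 acinar markers, at 78.5 and 459 CPM. These 3 lists were higher in the library in which the mitochondrial share was higher, and none of their markers was at 0. Other lists went the other way, such as the 7 endothelial markers (135 and 100.1 CPM) and the 6 plasma cell markers (493 and 410). With 10% of the UMIs taken as background RNA and subtracted, the mitochondrial ratio was 1.30 and the nuclear ratio 1.22. In tumour-like cells the 8 granulocyte markers summed to 1328 CPM in KPC-shV and 635 in KPC-shZEB1, and the 10 monocyte-macrophage markers to 370 and 755. The subtraction took the same 10% in both libraries, so it cannot show the effect of unequal amounts of such RNA. The part of such RNA in the results was not tested.

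**Figure D4:**
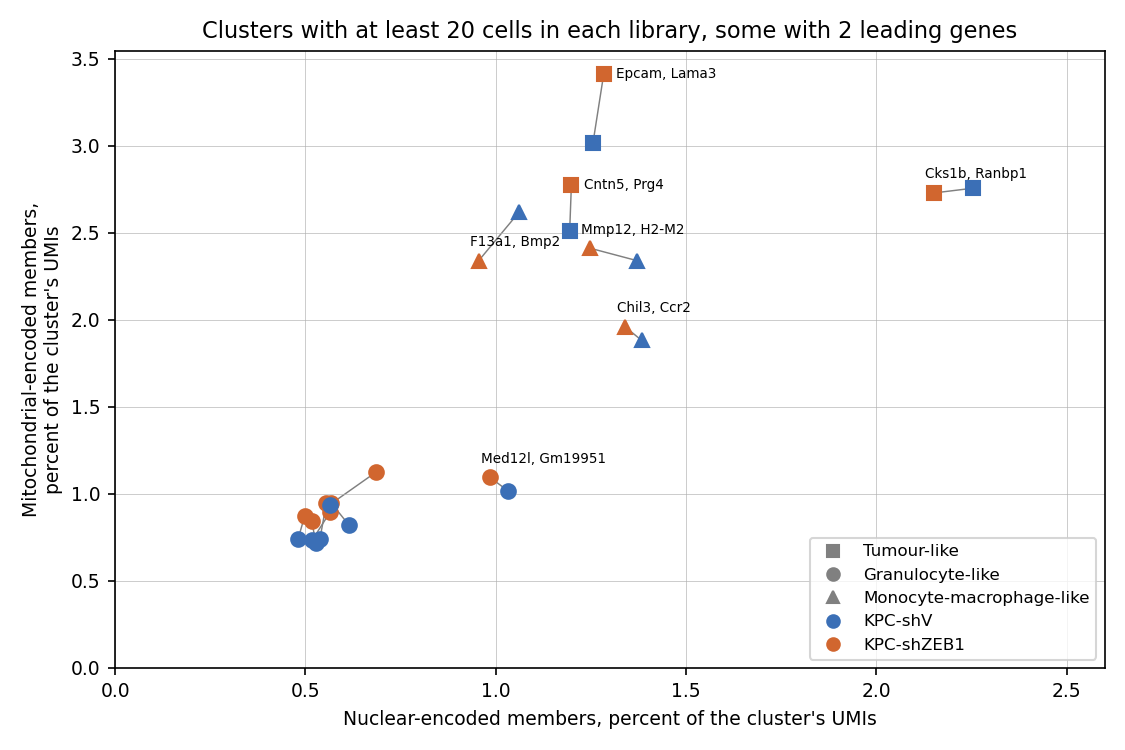
Mitochondrial share (vertical axis) against nuclear share (horizontal axis), both in percent of the cluster's UMIs, for tumour-like, granulocyte-like and monocyte-macrophage-like clusters with at least 20 cells in each library, a line joining the 2 libraries of a cluster. The cluster led by Cks1b and Ranbp1 lies far right at 2.26% and 2.15% nuclear, and the cluster led by Med12l lies right of the other granulocyte-like clusters.

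Among tumour-like cells, the cluster led by Cks1b and Ranbp1 differed most from the others in its nuclear genes. It held 313 and 317 cells with medians of 2190 and 2281 UMIs, far below the medians of the class (23784 and 23863). Its nuclear share was 2.26% in KPC-shV and 2.15% in KPC-shZEB1, against 1.21% and 1.25% in the other tumour-like cells, which is 1.86 and 1.72 times as high. Its mitochondrial share was nearly that of the others (2.76% and 2.73%, against 2.65% and 2.93%), so the number of mitochondrial UMIs per nuclear UMI fell to 1.22 and 1.27, from the 1.69 to 2.66 of the other tumour-like clusters.

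Of the nuclear genes, 78 of 86 in KPC-shV and 81 of 87 in KPC-shZEB1 were at least 1.2-fold higher in this cluster, where 25.7% and 27% of all genes were. Named after their values were seen, Uqcr10, a small complex III subunit, was 126 CPM in the other cells and 315 in the cluster in KPC-shV, and 147 and 323 in KPC-shZEB1. Cox5a of complex IV was 331 and 882, and 323 and 641. Atp5e of ATP synthase was 248 and 585, and 218 and 469. Ndufs1, the large core subunit of complex I, stood apart with 50.1 and 38.1 CPM in KPC-shV and 47.7 and 49.4 in KPC-shZEB1.

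Other measures of these cells moved with that share. Malat1, a nuclear RNA, was 4448 and 4953 CPM in the cluster and 11233 and 11385 in the other tumour-like cells. Cytosolic ribosomal protein genes took 22.5% and 21.3% of its UMIs, against 12.5% to 14.5% in the other tumour-like clusters. Ptprc, a marker of leukocytes, was 157 and 160 CPM, against 45.8 and 76.0, while the keratin Krt18 was 1353 and 1673, against 1367 and 1603. Low depth, RNA content and cells of another type in the same droplet were not told apart here, and their part in the result was not tested.

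Within monocyte-macrophage-like cells the cluster led by F13a1, with Lyve1 among its leading genes (450 and 626 cells), had the lowest nuclear share, 1.06% and 0.955% against 1.38% and 1.27% in the rest of the class. Its mitochondrial share was not lower (2.62% and 2.34%, against 2.15% and 2.28%). Of its nuclear genes, 57 of 82 in KPC-shV and 68 of 81 in KPC-shZEB1 were at least 1.2-fold lower than in the rest of the class, where 30.1% and 30.3% of all genes were. Named after their values were seen, Atp5g1 was 152 CPM in the rest and 81.8 in the cluster in KPC-shV, and 152 and 80.2 in KPC-shZEB1. Cox5b was 264 and 162, and 204 and 132. Ndufa4, a complex IV subunit in spite of its name, went the other way, at 168 and 273, and 141 and 248. The complex II subunits Sdha and Sdhc and the complex II assembly factor Sdhaf4 differed little between the cluster and the rest, with ratios of 0.945 to 1.08. They are a part of the 4 subunits and 4 assembly factors of complex II in the set, and do not describe that complex as a whole.

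Some complex IV subunits with tissue-limited forms, and the complex IV paralogue Ndufa4l2, stood out by CPM in small classes, though larger classes also held their UMIs. Cox6a2, the heart and muscle form of subunit VIa, was counted 114 times in the 15 plasmacytoid dendritic-like cells of KPC-shV (852 CPM, 702 to 1020) and 128 times in the 39 of KPC-shZEB1 (386 CPM, 322 to 459). A UMI was found in 14 and 31 of these cells. The usual form, Cox6a1, was counted 16 and 30 times in the same cells (120 and 90.4 CPM). In tumour-like cells the order was reversed, with 8 and 11 UMIs of Cox6a2 (0.230 and 0.321 CPM) and 121 and 121 CPM of Cox6a1. With each cell thinned to 1000 UMIs, 40% and 20.5% of the plasmacytoid dendritic-like cells and 0.0669% and 0.0697% of the tumour-like cells held a Cox6a2 UMI. In dendritic-like cells of the other kinds Cox6a2 was counted 1 and 2 times in 131 and 395 cells.

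Ndufa4l2, a paralogue of Ndufa4 known as a hypoxia target, was 378 CPM (305 to 462) in 14 pericyte-like cells of KPC-shV and 266 CPM (196 to 353) in 10 of KPC-shZEB1, above the 100.5 and 105 CPM of Ndufa4 in the same cells. It was 66.9 and 66.9 CPM in fibroblast-like cells, where a UMI was found in 35.7% and 32.8% of cells and Ndufa4 was 354 and 306 CPM. In endothelial-like cells it was 2.49 and 11.6 CPM.

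Cox4i2, the alternative form of subunit IV known from lung and hypoxic cells, followed Ndufa4l2 in pericyte-like cells (100.5 and 183 CPM, from 25 and 33 UMIs). It was 1.92 and 3.71 CPM in fibroblast-like cells, and 4.90 and 5.53 CPM in granulocyte-like cells, from 112 and 74 UMIs. The usual form Cox4i1 was 543 and 688 CPM in pericyte-like cells, so the alternative form remained the minor 1 there.

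The other forms were rare. Cox6b2, the testis form of subunit VIb, reached 23.5 and 13.3 CPM in fibroblast-like cells. Cox7a1, a muscle form, did not exceed 4.02 CPM in any class, Cox8b and Cox8c were counted 1 time each over all classes, and Cox7b2 was counted 0 times.

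**Figure D5:**
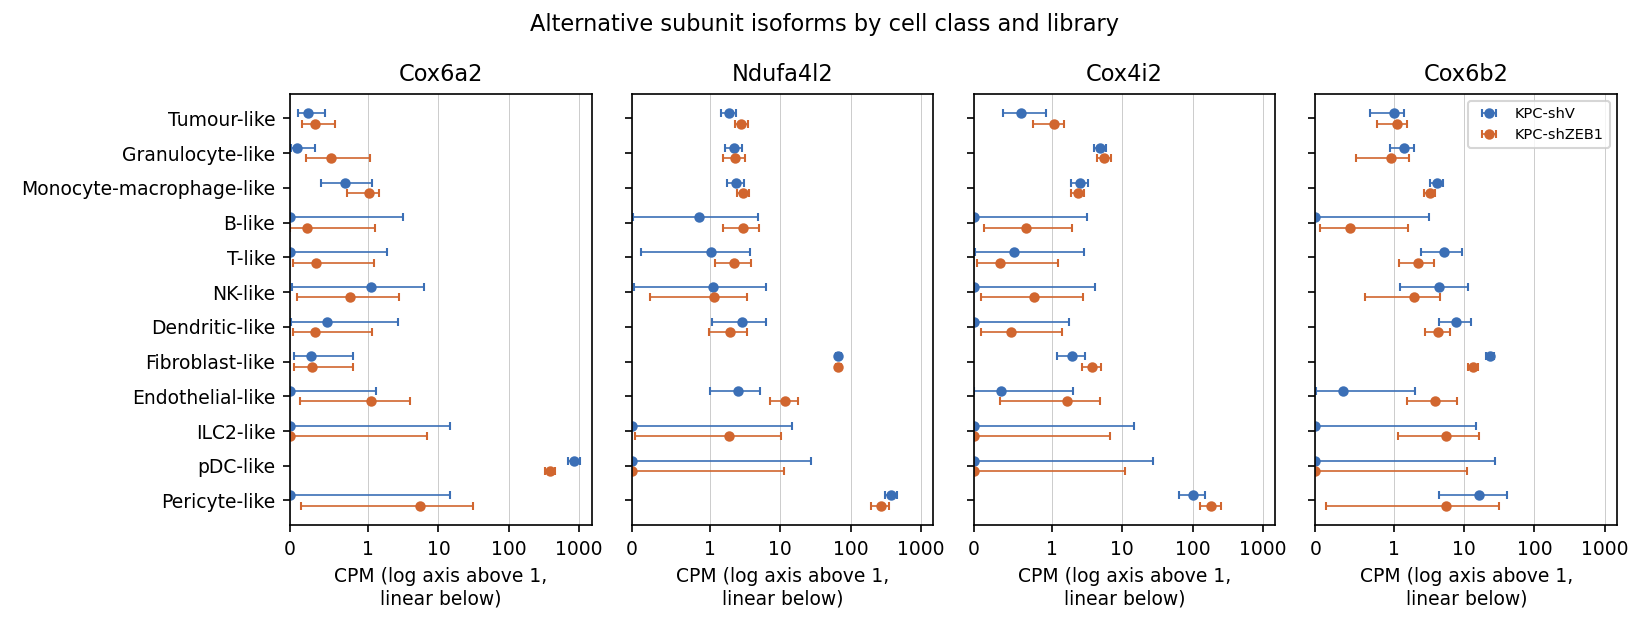
Level in CPM (linear below 1 and logarithmic above) of 4 alternative subunit forms by class and library, with 95% counting intervals. Cox6a2 stands out in plasmacytoid dendritic-like cells (852 and 386 CPM), and Ndufa4l2 and Cox4i2 in pericyte-like cells.

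Other genes of mitochondrial energy metabolism were read from fixed lists in tumour-like cells, where 14.9% of all genes were at least 1.2-fold higher and 9.82% lower. Of 18 genes of the tricarboxylic acid cycle and pyruvate entry, 2 were higher and 0 lower, from Mpc1, a subunit of the pyruvate carrier (ratio 1.58), to Cs, citrate synthase (0.886). Of 78 mitochondrial ribosomal protein genes, 11 were higher and 3 lower, from Mrpl58 (1.39) to Mrps33 (0.778). Of 14 electron and membrane carriers, 3 were higher and 1 lower, from the uncoupling protein Ucp2 (2.07) to Higd1a (0.753).

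Of 20 regulators of mitochondrial biogenesis and transcription, 1 was higher and 1 lower, from Lrpprc, which stabilises mitochondrial messengers (1.31), to Fastk (0.805). Of 26 assembly factors outside the 108 genes, 1 was higher and 1 lower, from Cox10 (1.28) to the copper chaperone Cox17 (0.732). Of 83 cytosolic ribosomal protein genes, 2 were higher and 19 lower, the lowest being Rps21 (0.607). Of 7 genes that rise during tissue dissociation, 0 were higher and 6 lower, from Fos (0.916) to Hspa1b (0.385). The nuclear RNAs Malat1, Neat1 and Meg3 had ratios of 0.938 to 1.11. The part of tissue handling in the differences of the mitochondrial and nuclear genes was not tested.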

How the data were processed

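Single cells from 2 dissociated orthotopic tumours were profiled by droplet-based 3′ sequencing. The authors deposited raw UMI counts per gene and barcode for each library; the submitters' processing notes name Cell Ranger 7.0.1 and the mm10 build, and whether intronic reads were counted is not given in the sources used here. A barcode was kept with 500 genes or more, between 1000 and 60000 UMIs, and mitochondrial UMIs of no more than 15%. The last limit uses the mitochondrial genes studied here, so their shares were also computed without it. It removed 81 and 121 barcodes not removed otherwise. Scrublet scores above 0.2 (315 and 343 cells) were removed as doublets. Both libraries were clustered together (scanpy 1.11.5, 3000 variable genes without the 108 genes, 30 components, 20 neighbours, Leiden resolution 1), and clusters took class names from marker lists, needing at least 3 detected markers. Names were rebuilt here and may differ from those of the study.

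UMIs were summed by class and library. Shares carry exact binomial and ratios exact conditional 95% intervals, for counting error only. Precision follows the depth, which was 101201508 and 118943000 UMIs. A gene was called higher or lower at 1.2-fold, among genes with a mean of at least 10 CPM, and log2 ratios had 1 CPM added. With 1 library per group no significance test was run. The computation of ratios, their intervals and the fold calls was tested on simulated counts for tumour-like, granulocyte-like and monocyte-macrophage-like cells.

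The genes and lists were chosen with earlier results of these data known. Genes were named by rule: all 13 mitochondrial genes, the 5 nuclear genes at either end of the ratios in tumour-like cells, the 3 at either end in each of the granulocyte-like and monocyte-macrophage-like classes, the most and least abundant gene of each complex, the alternative forms, and the ends of each further list in tumour-like cells. Of the genes so named, 1 is left out and not reported here. Others are marked as chosen after their values were seen. Mitochondrial sequences were read from GENCODE M21 transcripts and promoters from RefSeq GRCm38.p6. Alternatives covered filters, doublets, clustering, weighting, background RNA, thresholds and cluster mix.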

Additional observations from a re-analysis of the deposited data

Results flagged for a closer look

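The nuclear share moved in opposite directions in 2 classes. It was higher in KPC-shZEB1 in granulocyte-like cells (ratio 1.19) and lower in monocyte-macrophage-like cells (0.923), and this difference between the classes was not tested. Counts beside it show that the granulocyte-like ratio was 1.00 with the cluster mix of KPC-shV and 0.966 with that of KPC-shZEB1. The monocyte-macrophage-like ratio was 0.929 and 0.923. Of all genes tested, 41.1% were at least 1.2-fold higher and 9.88% lower in granulocyte-like cells. In monocyte-macrophage-like cells these shares were 11% and 7.2%.

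Barcodes removed by the mitochondrial limit entered no comparison of cells, and their mitochondrial share was high because the limit selected them for it. In the 81 barcodes of KPC-shV and the 121 of KPC-shZEB1 removed only for holding over 15% mitochondrial UMIs, the mitochondrial genes held 34.5% and 29.1% of the UMIs. The nuclear genes held 0.514% and 0.677% in the same barcodes. Barcodes under 1000 UMIs held 6.82% and 6.19% mitochondrial UMIs.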

How the results depend on the processing

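No paired analysis was possible because each group has 1 library. The mitochondrial ratio lay between 1.09 and 1.14 in tumour-like, 1.14 and 1.30 in granulocyte-like and 0.981 and 1.03 in monocyte-macrophage-like cells over the alternatives, and the nuclear ratio between 0.993 and 1.04, 0.966 and 1.22, and 0.913 and 0.929. Without a filter on mitochondrial UMIs the mitochondrial ratio was 1.11 (tumour-like) and 1.28 (granulocyte-like), and at a 10% limit 1.09, 1.23 and 1.03 (monocyte-macrophage-like). Without an upper UMI limit the tumour-like ratios were 1.13 (mitochondrial) and 1.00 (nuclear), with 10 nuclear genes higher and 6 lower, and mt-Co1 turned to 1.00 from 0.979. Without doublet removal the tumour-like mitochondrial ratio was 1.09, and with each library clustered alone the monocyte-macrophage-like nuclear ratio was 0.917. As a mean over cells the tumour-like nuclear ratio turned to 0.993 and the monocyte-macrophage-like mitochondrial ratio to 0.981, and the granulocyte-like ratios were 1.23 and 1.17. Subtracting 10% background RNA gave 1.30 and 1.22 in granulocyte-like and 1.01 and 0.913 in monocyte-macrophage-like cells (mitochondrial and nuclear). At 1.5-fold, 2 mitochondrial and 1 nuclear gene were higher in tumour-like cells, 15 nuclear genes in granulocyte-like cells and 2 mitochondrial and 0 nuclear genes in monocyte-macrophage-like cells, and 0 were lower in any of the 3 classes. At a mean of 50 CPM 22 nuclear genes were higher in granulocyte-like cells and 1 in monocyte-macrophage-like cells, and with no minimum other than 1 UMI 1 was lower in granulocyte-like cells.

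Chosen after seeing the data, leaving out the Siglecf cluster gave granulocyte-like ratios of 1.22 (mitochondrial) and 1.02 (nuclear), with 18 nuclear genes higher and 5 lower. Leaving out the low-UMI tumour-like cluster gave a mitochondrial ratio of 1.11, and leaving out the cluster of mostly 1 library gave 1.14, with 5 nuclear genes lower and mt-Co1 turned to 1.02. With the cluster mix of KPC-shV and of KPC-shZEB1 in both libraries, and in tumour-like cells also without that cluster, the tumour-like ratios were 1.11 and 1.11 (mitochondrial) and 1.01 and 1.01 (nuclear), the granulocyte-like ratios 1.2 and 1.14, and 1.00 and 0.966, and the monocyte-macrophage-like ratios 1.00 and 1.00, and 0.929 and 0.923. The cause of these changes was not tested.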

Other observations

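Tumour-like cells over 60000 UMIs, left out of the classes, numbered 249 in KPC-shV and 183 in KPC-shZEB1. Their mitochondrial genes held 2.55% and 3.01% of the UMIs and their nuclear genes 1.45% and 1.41%. Both nuclear values lay above the 1.25% and 1.29% of the tumour-like cells that were kept.

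Mitochondrial share and depth were related within tumour-like cells. Cells of 3000 to 10000 UMIs had mitochondrial shares of 4.45% and 4.77%, cells of 1000 to 3000 UMIs 2.24% and 2.55%, and cells of 10000 to 30000 UMIs 2.72% and 3.09%. In monocyte-macrophage-like cells the share was highest in the shallowest cells, 4.39% and 4.35% below 3000 UMIs, and 2.17% and 2.24% between 10000 and 30000 UMIs.

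Among granulocyte-like cells the electron carrier list held a gene in each extreme. Ucp2, an uncoupling protein, had a ratio of 2.05 and Higd1a, a small hypoxia-induced protein of the inner membrane, a ratio of 0.449. Of the 15 tricarboxylic acid cycle genes tested there 10 were higher and 0 lower, and of 53 mitochondrial ribosomal protein genes 31 were higher and 2 lower, where 41.1% of all genes were higher and 9.88% lower.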
